A study of Mus musculus with 38 samples.

Results

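The enzymes that write, copy and remove DNA methylation were followed through mouse cells in naive and primed pluripotency and on the way between these states. They are Dnmt1, Dnmt3a, Dnmt3b, Dnmt3l, Uhrf1, Tet1, Tet2 and Tet3, which are 8 of the 29267 genes in each table of RNA levels. They were chosen by name, and the Ensembl identifiers of the tables were matched to these symbols. All 8 were found, and their values were taken over all 38 libraries, which fall into 18 groups of 1 to 5.

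The naive cells were 2 kiPSC libraries (induced pluripotent stem cells) and 5 ESC libraries (embryonic stem cells); ESC replicates 1 and 2 carry the strain label CBA/CaJ X C57BL/6J, while the methods describe derivation from 129 and OG2 mice, of which OG2 carries an Oct4-GFP reporter. The primed cells were 4 EpiSC libraries (epiblast stem cells) and 2 kEpiSC libraries, from a drug-selected EpiSC line with a lentiviral Klf4 transgene, which the study places under a CAG promoter. From their name, kiPSCs are taken here as reverted cells of that kEpiSC line. They would then carry its Klf4 transgene, unlike the ESCs. The primed to naive transition (PNT) put kEpiSCs into the reprogramming medium iCD1 for 1, 2 or 3 days (PNT-D1, PNT-D2 and PNT-D3, 2 libraries each). Parallel cultures also received the c-Jun N-terminal kinase inhibitor SP600125 (PNT-JNKi-D1, PNT-JNKi-D2 and PNT-JNKi-D3, with 2, 3 and 2 libraries); its dose is not in the labels. A last set came from ESCs turned into EpiSC-like cells, either c-Jun deleted (JunKO) or wild type (WT). It held 1 iEpiSC and 1 kiEpiSC library per genotype, which were pooled as its primed cells although the labels do not say how the lines differ, and 2 libraries per genotype on day 3 in iCD1 and 2 on day 3 in iCD1 with JNKi. The deletion used a pair of CRISPR guides around the only exon of Jun, and the labels do not say how many clones stand behind each genotype. Klf4 was at 36.26 TPM in JunKO-iEpiSC and 40.06 TPM in JunKO-kiEpiSC, against 36.61 TPM in WT-iEpiSC and 62.59 TPM in WT-kiEpiSC, all above the 0.52 to 1.94 TPM of EpiSCs.

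Each library held between 2164711 and 15944950 expected counts, the reads that RSEM assigned to genes. Jun had 5.01 to 14.62 TPM in JunKO libraries, against 40.39 to 240.39 TPM in WT libraries, where TPM is a level per transcript length, scaled to the same sum in every library. The naive markers were summed over 13 genes and came to 7007.89 to 10330.18 TPM in ESCs, against 23.78 to 294.27 TPM in EpiSCs. Markers of fibroblasts and feeder cells, 10 genes, summed to 6.17 to 491.09 TPM in ESCs, the highest in ESC replicate 5, against 17.67 to 153.64 TPM in EpiSCs. ESC replicates 1 to 4 also stood apart in the gap between gene length and effective length, at 73.48 to 73.49 bases, against 133.05 to 192.14 bases in all other libraries. In bulk RNA, fewer cells that express a gene and less RNA per cell cannot be told apart. Nothing in the labels says that replicates came from separate cultures, so a p-value here speaks of the spread among libraries, and that spread may be technical.

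Methylation of cytosine in CpG pairs is set by the de novo enzymes DNMT3A and DNMT3B, helped by DNMT3L, a relative with no catalytic activity of its own. DNMT1 copies the pattern to the new strand after replication, and UHRF1 brings it to the hemimethylated sites. The TET dioxygenases oxidize 5-methylcytosine, which opens the way to its removal. Naive mouse ESCs in medium with MEK and GSK3 inhibitors are known for low genome-wide methylation, and primed epiblast cells for high methylation.

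On GRCm38, Dnmt1 lies on chr9:20907209-20959888 (minus strand), Uhrf1 on chr17:56303321-56323486 (plus), Dnmt3a on chr12:3806007-3914443 (plus), Dnmt3b on chr2:153649450-153687730 (plus), Dnmt3l on chr10:78041947-78063622 (plus), Tet1 on chr10:62804570-62908996 (minus), Tet2 on chr3:133463679-133545139 (minus) and Tet3 on chr6:83362373-83459084 (minus). The windows below come from RefSeq on GRCm38.p6, run 5′ to 3′ on the gene's strand and hold 250 bases before and 50 bases from the start. Capitals mark matches to GGGNGTGG, a KLF-type motif, on either strand. Dnmt3b, Dnmt3l and Tet2 are shown because their RNA differed most between states, and Dnmt3a because its transcripts begin at separate starts.
Dnmt3b, chr2:153649199-153649498, plus strand: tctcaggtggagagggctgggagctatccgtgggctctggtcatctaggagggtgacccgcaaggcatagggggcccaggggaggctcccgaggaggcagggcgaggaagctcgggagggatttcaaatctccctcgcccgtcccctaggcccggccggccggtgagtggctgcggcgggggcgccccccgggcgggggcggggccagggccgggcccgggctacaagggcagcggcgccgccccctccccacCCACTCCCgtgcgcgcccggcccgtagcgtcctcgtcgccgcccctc
Dnmt3l, chr10:78049592-78049891, plus strand: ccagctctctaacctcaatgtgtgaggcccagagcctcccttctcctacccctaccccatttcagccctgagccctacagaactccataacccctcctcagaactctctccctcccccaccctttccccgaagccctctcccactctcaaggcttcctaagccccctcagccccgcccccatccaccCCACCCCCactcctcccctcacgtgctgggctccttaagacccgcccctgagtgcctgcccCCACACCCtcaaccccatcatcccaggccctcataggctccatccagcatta
Dnmt3a, start of the long transcripts, chr12:3806730-3807029, plus strand: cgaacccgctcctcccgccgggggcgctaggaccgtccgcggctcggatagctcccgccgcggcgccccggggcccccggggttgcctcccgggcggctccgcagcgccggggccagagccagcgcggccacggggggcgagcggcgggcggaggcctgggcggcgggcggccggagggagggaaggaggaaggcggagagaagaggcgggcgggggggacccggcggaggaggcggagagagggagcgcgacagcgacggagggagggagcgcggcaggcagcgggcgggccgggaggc
Dnmt3a, internal start, chr12:3891494-3891793, plus strand: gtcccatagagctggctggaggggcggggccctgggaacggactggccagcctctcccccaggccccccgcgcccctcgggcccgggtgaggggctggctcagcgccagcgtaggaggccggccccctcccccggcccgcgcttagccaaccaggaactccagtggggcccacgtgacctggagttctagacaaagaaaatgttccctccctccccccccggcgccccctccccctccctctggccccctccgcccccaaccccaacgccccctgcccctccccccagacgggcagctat
Tet2, chr3:133544341-133544640, minus strand: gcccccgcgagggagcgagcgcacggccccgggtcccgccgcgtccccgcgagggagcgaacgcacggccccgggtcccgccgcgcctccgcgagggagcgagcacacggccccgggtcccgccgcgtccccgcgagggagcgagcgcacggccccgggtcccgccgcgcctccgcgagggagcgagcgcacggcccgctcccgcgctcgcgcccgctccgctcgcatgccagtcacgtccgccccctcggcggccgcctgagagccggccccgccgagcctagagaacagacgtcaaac

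Counted over the window, Tet2 held 57 CpG pairs, Dnmt3a 46 at the long start and 18 at the internal one, Dnmt3b 30 and Dnmt3l 4, beside a median of 7 over 32851 windows of 27025 genes. The KLF-type letters were in 17.6% of all windows; they stood once in the Dnmt3b window, at bases 4 to 11 from the start, and at a pair of places in the Dnmt3l window, from -63 to -56 and from -2 to 6. A further Dnmt3l start and both Uhrf1 windows also held them. The motifs TGANTCA (AP-1, 7.81% of windows), TGACGTCA (CRE, 1.79%) and AAGGTCA (ESRRB, 4.72%), searched on both strands, had no match in any of the 15 windows of the 8 genes. None of these motifs holds another within its letters. An E2F-type motif, TTTNGCGC, was in 1.38% of windows and was found in Dnmt1 and Uhrf1. A match is a description of the letters and no evidence of binding.

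**Figure D1:**
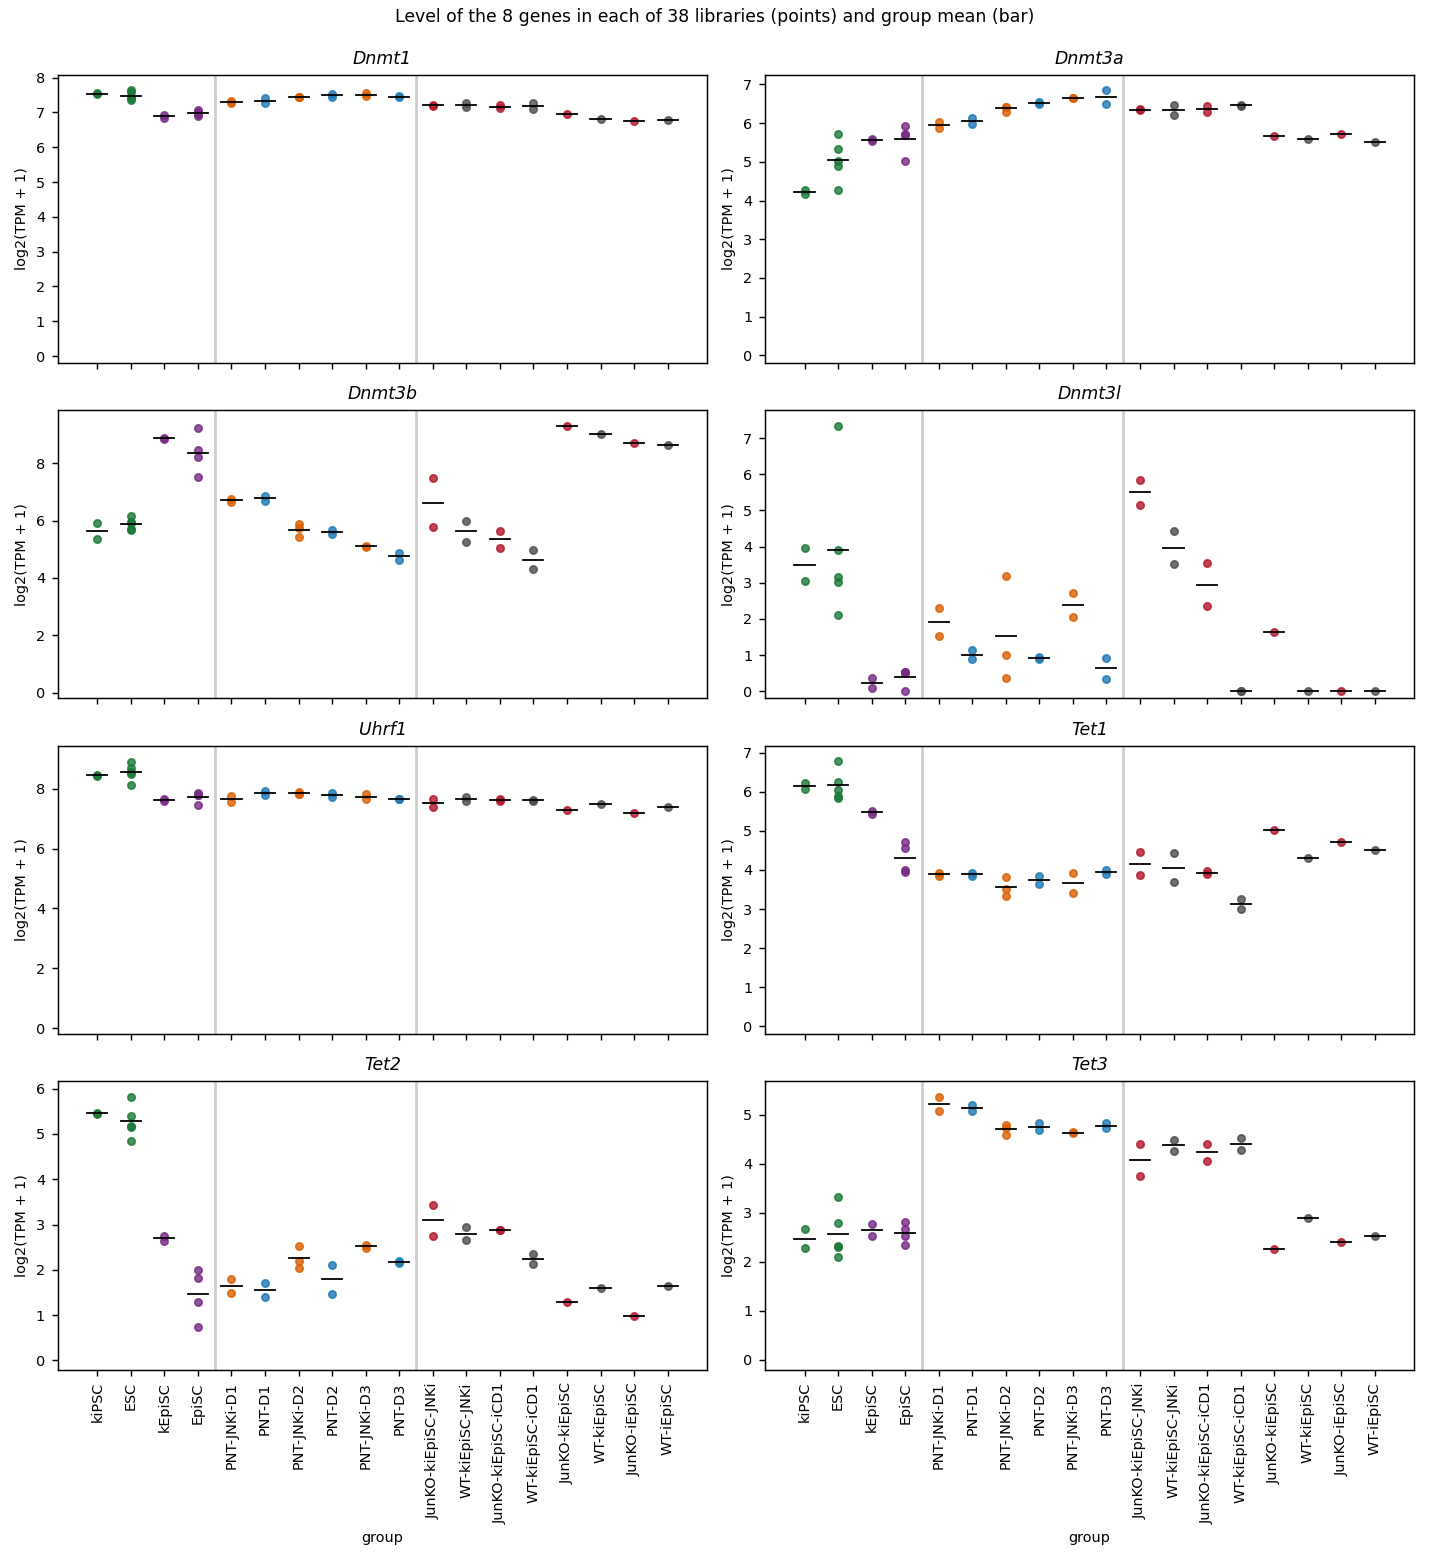
TPM of each gene in each library, drawn on a log2(TPM + 1) axis, with 1 point per library, a bar at the group mean of these log2 values and groups along the x axis. Dnmt1 stays within a narrow band, Dnmt3b is highest in the primed groups, Tet2 is high in ESCs and kiPSCs, and Tet3 is high in the iCD1 groups.

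The spread between groups differed widely from gene to gene. The highest group mean was 1.75 times the lowest for Dnmt1 (maintenance methyltransferase), 2.66 times for Uhrf1, 5.76 times for Dnmt3a, 9.41 times for Tet1, 9.57 times for Tet3, 25.4 times for Dnmt3b and 44.8 times for Tet2. No such ratio is given for Dnmt3l, because some groups were at 0. Neighbouring groups in the order of means often overlapped: for Dnmt1 this held for 10 of the 17 neighbouring pairs, so most of its ranks are not separated beyond the spread. Where groups are said below not to overlap, the share of all genes that are separated so was not counted.

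In naive ESCs against primed EpiSCs, both genes of maintenance methylation were higher. Dnmt1 had 171.91, 170.49, 163.00, 189.89 and 197.39 TPM in ESCs, against 118.49, 127.70, 122.22 and 133.52 TPM in EpiSCs. Uhrf1 had 281.95, 376.48, 419.57, 482.29 and 363.88 TPM in ESCs, against 176.52, 229.70, 223.23 and 221.90 TPM in EpiSCs. In both genes the lowest ESC library was above the highest EpiSC library. In edgeR's quasi-likelihood test with Benjamini-Hochberg adjustment over 13923 genes, Dnmt1 rose by 0.46 ± 0.09 on the log2 scale (SE, adjusted p = 0.00103) and Uhrf1 by 0.81 ± 0.14 (adjusted p = 0.000481). The call for both held under every alternative tried, with a log2 range of 0.36 to 0.62 for Dnmt1 and 0.59 to 0.95 for Uhrf1. These genes were among the 7 of 8 that passed, while 50.9% of all genes tested passed in this comparison.

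The de novo enzymes moved in opposite directions to their helper. Dnmt3b, the main de novo enzyme of the epiblast, had 59.75, 61.30, 51.69, 49.45 and 69.82 TPM in ESCs, against 595.98, 298.25, 350.03 and 179.93 TPM in EpiSCs. The groups were far apart, although EpiSC libraries themselves spanned a wide range. On the log2 scale it fell by 2.76 ± 0.30 in ESCs (adjusted p = 8.52e-06). Dnmt3a had 28.72, 31.70, 39.45, 18.22 and 51.99 TPM in ESCs, against 60.12, 50.96, 51.26 and 31.75 TPM in EpiSCs, and these ranges overlapped. Its counts fell by 1.04 ± 0.31 in ESCs (adjusted p = 0.012), but limma on log2(TPM + 1) gave -0.54 ± 0.26 (adjusted p = 0.0941) and ESC replicate 5 alone gave -0.26 ± 0.30 (adjusted p = 0.525), where the lone library is assumed to vary like the other groups. Without the ESC libraries that carry the strain label it was -0.87 ± 0.37 (adjusted p = 0.0801).

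Dnmt3l was a naive RNA with an uneven level among ESCs. It had 3.32, 14.02, 160.30, 7.06 and 7.91 TPM in ESCs, from 12, 51, 608, 22 and 56 counts, against 0.46, 0.43, 0.00 and 0.44 TPM in EpiSCs, from 1, 1, 0 and 1 counts. ESC replicate 3 held most of the reads. As summed counts, 749 in ESCs against 3 in EpiSCs gave a ratio of 105 after scaling to library size, with a 95% counting interval of 35.7 to 510 that covers counting error only. Without ESC replicate 3, 141 counts in ESCs against 3 in EpiSCs gave a ratio of 23.8 (7.99 to 117), which is below that interval. The test called it (adjusted p = 0.00317), as did each of the 21 alternatives, those without any single ESC or EpiSC library included.

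Among the TET enzymes, Tet1 and Tet2 were naive and Tet3 was not separated between states. Tet1 had 56.76, 65.07, 58.24, 75.09 and 108.78 TPM in ESCs, against 14.53, 22.60, 25.38 and 15.04 TPM in EpiSCs. Tet2 had 34.48, 41.45, 27.76, 34.92 and 55.47 TPM in ESCs, against 0.66, 2.54, 1.46 and 2.97 TPM in EpiSCs, the widest gap of the TET enzymes. Both genes showed no overlap between the groups, and they rose by 1.94 ± 0.20 (Tet1, adjusted p = 5.42e-06) and 4.28 ± 0.31 (Tet2, adjusted p = 3.34e-07) on the log2 scale. Tet3, the enzyme known from the zygote and from neural cells, had 5.94, 3.95, 3.98, 3.27 and 9.05 TPM in ESCs, against 4.79, 5.34, 4.10 and 5.97 TPM in EpiSCs. Its log2 fold change of -0.17 ± 0.27 did not pass (unadjusted p = 0.554).

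**Figure D2:**
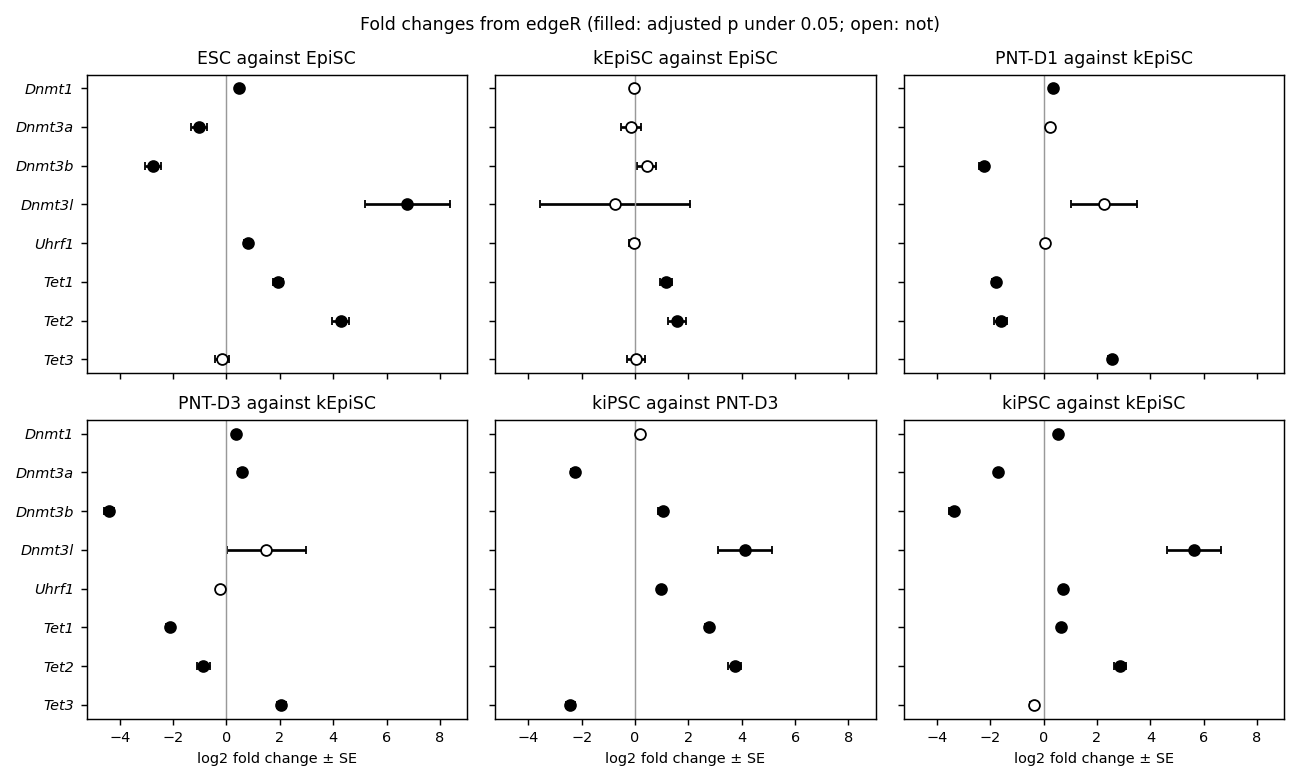
log2 fold changes (x axis) of the 8 genes, with SE as bars and filled points for adjusted p under 0.05. The comparisons drawn are ESC and kEpiSC against EpiSC, PNT-D1 and PNT-D3 against kEpiSC, and kiPSC against PNT-D3 and kEpiSC. Dnmt3b lies far below 0 and Tet3 far above it on day 3 in iCD1 against kEpiSC. Fitted values of Dnmt3l that rest on groups with a handful of counts, such as 3 counts in EpiSCs, are no measure of size.

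The make-up of the families was read as shares of summed TPM. Of the DNMT3 RNA, Dnmt3b held 52.6% in ESCs and 63.4% in kiPSCs, against 87.0% in EpiSCs and 90.9% in kEpiSCs. Dnmt3l made up 19.2% in ESCs, with single libraries between 3.62% and 63.8%, against 0.1% in EpiSCs. Of the TET RNA, Tet2 held 33.3% in ESCs against 7.19% in EpiSCs, and Tet3 held 4.44% in ESCs against 19.9% in EpiSCs. Shares computed from FPKM are the same by definition, because TPM and FPKM are proportional within a library. The largest difference, 0.045 percentage points, is rounding and no check of the shares.

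**Figure D3:**
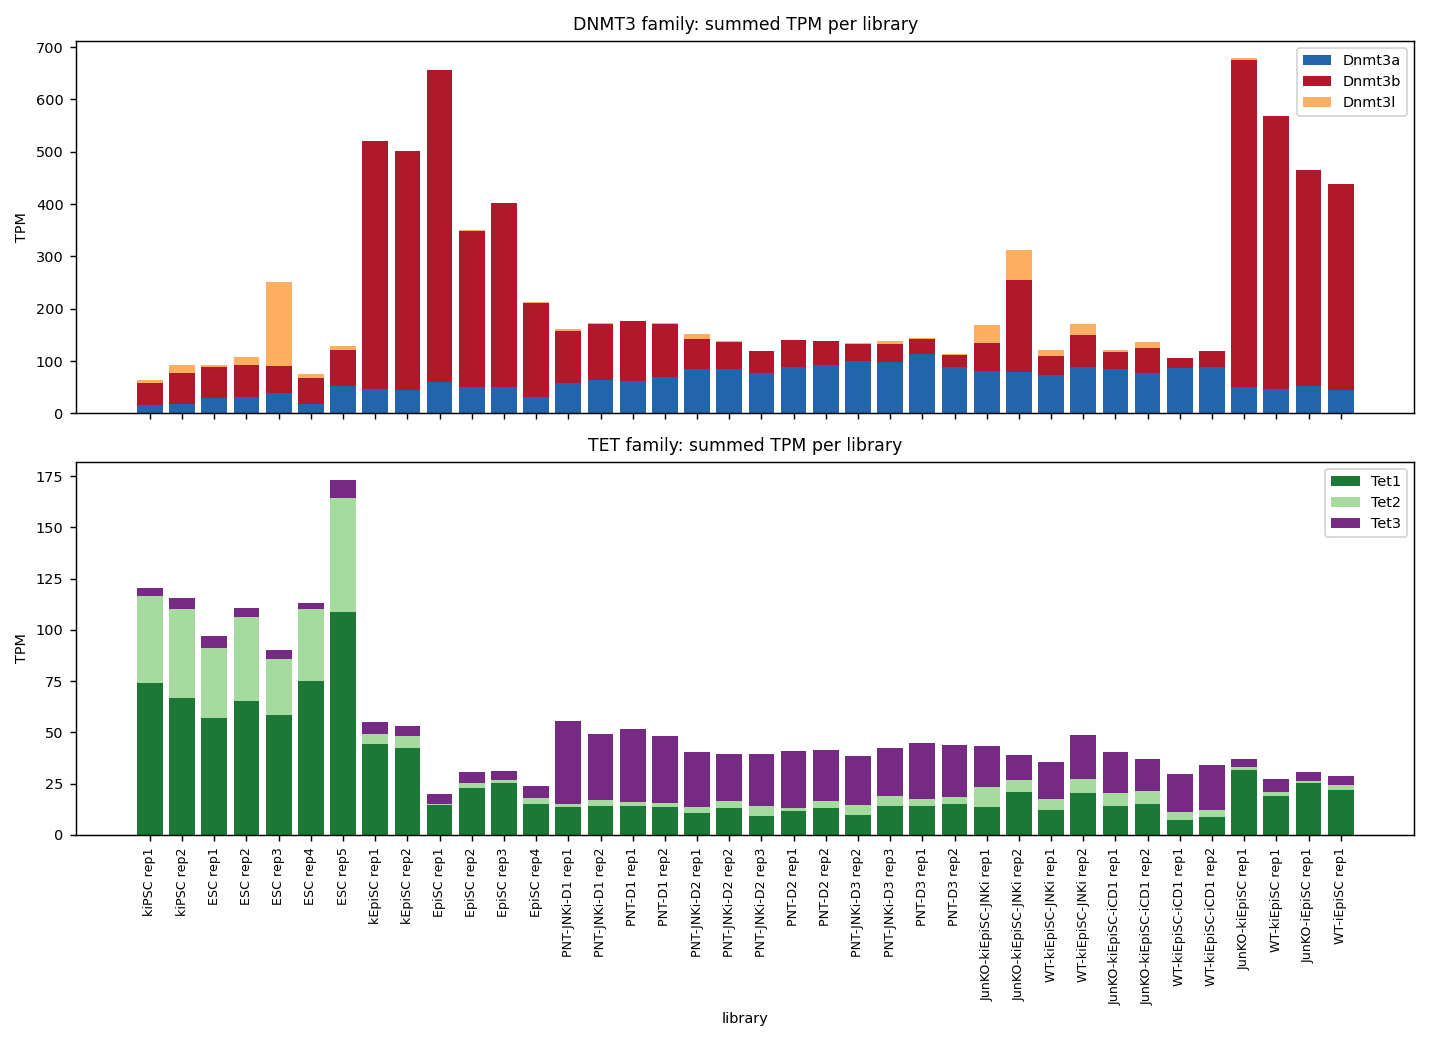
TPM (y axis) of Dnmt3a, Dnmt3b and Dnmt3l and of Tet1, Tet2 and Tet3, stacked for each library (x axis). Dnmt3b gives way to Dnmt3a over the days in iCD1. As mean shares of these sums, Dnmt3a held 79.0% on PNT-D3 and Tet3 held 68.5% on PNT-D1.

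The transcript length of Dnmt3a lay lower in ESCs, though not past the threshold after adjustment. The tables give a gene length weighted by the estimated share of each isoform. The annotation lists 18 Dnmt3a transcripts, among them long ones of 9685 and 8737 bases. Transcripts of 5424 and 2328 bases begin at or near the internal start, and others are shorter still. A weighted length below 5424 bases needs weight on transcripts shorter than that. The values therefore do not show a change between the long and the 5424-base transcripts alone. The weighted length was 3654 ± 455 bases in ESCs (SD, n = 5; 3043 to 4226), against 5281 ± 464 bases in EpiSCs (SD, n = 4; 4741 to 5873), and the groups did not overlap. The difference was -1626 bases (exact two-sided permutation test, p = 0.0159, the smallest that 5 against 4 libraries allow). Adjusted over the 6 genes that could be tested, p was 0.0952, and ESC replicate 5 alone gave a difference of -1055.1 bases. With that smallest p, a gene reaching it alone among the 6 could not pass after adjustment, so the miss decides nothing. The gap between gene length and effective length was 73.48 to 73.49 bases in ESC replicates 1 to 4, against 189.09 to 192.14 bases in EpiSCs. Its part in the weighted lengths was not tested. Of the other genes, none passed after adjustment, and Tet3 had the next lowest p (0.0476 exact, 0.143 adjusted; difference -1059 bases).

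**Figure D4:**
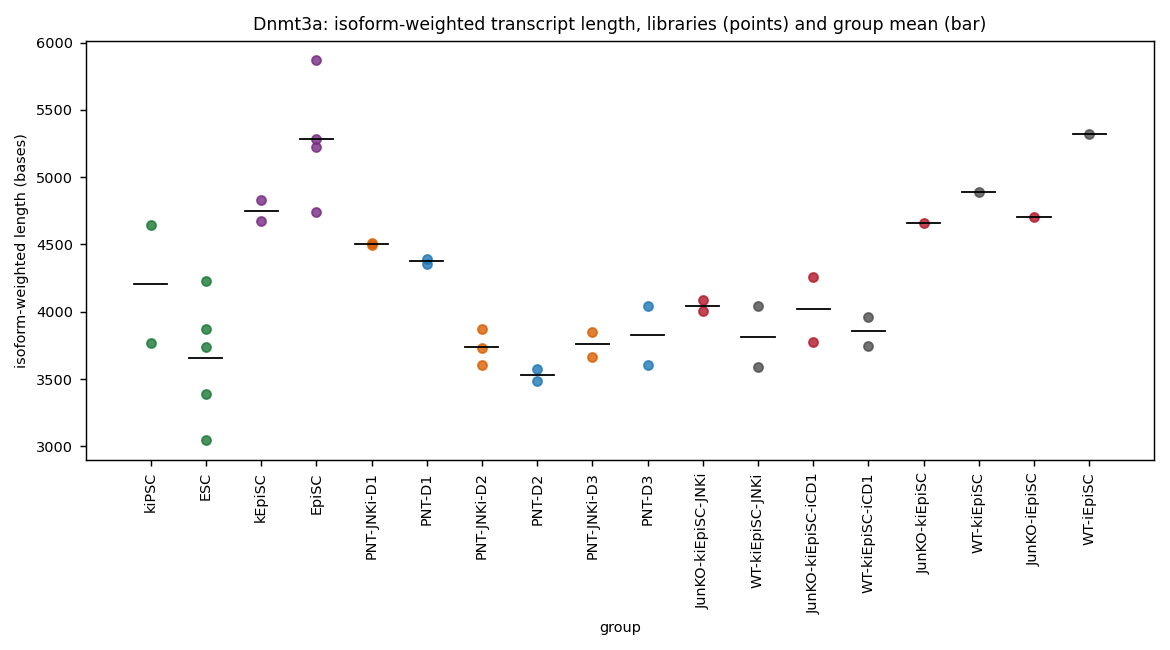
Isoform-weighted Dnmt3a transcript length (bases, y axis) in each library, with a bar at the group mean. All 4 EpiSC libraries lie above all 5 ESC libraries, and PNT-D2 and PNT-D3 lie below kEpiSC.

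In the Klf4 line held in primed medium, Tet1 and Tet2 were the 2 genes that passed against EpiSCs. In kEpiSCs, Tet1 had 44.18 and 42.55 TPM, against 14.53, 22.60, 25.38 and 15.04 TPM in EpiSCs. Tet2 had 5.21 and 5.74 TPM in kEpiSCs, against 0.66, 2.54, 1.46 and 2.97 TPM in EpiSCs. Both kEpiSC libraries were above all EpiSC libraries for both genes. Tet1 rose by 1.15 ± 0.23 (adjusted p = 0.0297) and Tet2 by 1.57 ± 0.35 (adjusted p = 0.0452) on the log2 scale, which makes 2 of 8 genes called beside 1.26% of all genes. Both calls are fragile: Tet1 lost it without EpiSC replicate 2 (adjusted p = 0.0605), EpiSC replicate 4 (0.0684), kEpiSC replicate 1 (0.149) or kEpiSC replicate 2 (0.307). Tet2 lost its call without EpiSC replicate 2 or 3 or either kEpiSC library (adjusted p of 0.0605 to 0.388). By limma on log2(TPM + 1), neither passed (adjusted p = 0.0578 for Tet1 and 0.12 for Tet2). The other genes did not pass, and Dnmt3b had 472.55 and 454.91 TPM in kEpiSCs, within the EpiSC range; without EpiSC replicate 1 it passed, at 0.95 (adjusted p = 0.0453).

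On entry into iCD1, Dnmt3b fell day by day and the TET enzymes exchanged places. Dnmt3b had 472.55 and 454.91 TPM in kEpiSCs, 114.47 and 101.93 TPM on day 1, 50.53 and 44.89 TPM on day 2, and 28.54 and 23.96 TPM on day 3. No library of a later day reached any library of the day before. On the log2 scale it fell by 2.25 ± 0.17 in PNT-D1 against kEpiSC (adjusted p = 5.50e-08), by 1.16 ± 0.17 in PNT-D2 against PNT-D1 (adjusted p = 0.000171) and by 1.00 ± 0.18 in PNT-D3 against PNT-D2 (adjusted p = 0.00231). It was the only gene of the 8 called in the later day steps, beside 16.5% of all genes between days 1 and 2 and 12.2% between days 2 and 3. With all 38 libraries in 1 fit these later steps did not pass (adjusted p = 0.0806 and 0.2). In PNT-D1 against kEpiSC, 5 of 8 genes passed, beside 46.3% of all genes. On day 1 the trophoblast markers, 9 genes, summed to 699.4 to 784.12 TPM, against 321.88 to 330.91 TPM in kEpiSCs, and their part in these values was not tested.

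Dnmt3a was higher while Dnmt3b was lower. Dnmt3a had 47.43 and 45.56 TPM in kEpiSCs, 61.57 and 69.76 TPM on day 1, 89.09 and 93.19 TPM on day 2, and 114.06 and 88.67 TPM on day 3, and every library in iCD1 was above the kEpiSC libraries. The share of Dnmt3a in DNMT3 RNA was 9.11% in kEpiSCs, 37.6% on day 1, 65.2% on day 2 and 79.0% on day 3. On counts the rise in PNT-D3 against kEpiSC was 0.56 ± 0.13 (adjusted p = 0.0015), while limma on log2(TPM + 1) gave 1.10; with all 38 libraries in 1 fit it did not pass (0.58 ± 0.31, adjusted p = 0.153). Beside this gap between scales, the weighted Dnmt3a length was 3826 bases on day 3, against 4751 bases in kEpiSCs.

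Tet1 and Tet3 turned over within the first day. Tet1 had 44.18 and 42.55 TPM in kEpiSCs, 14.17 and 13.40 TPM on day 1, 11.37 and 13.25 TPM on day 2, and 13.83 and 15.03 TPM on day 3. Tet3 had 5.80 and 4.75 TPM in kEpiSCs, 35.98 and 32.59 TPM on day 1, 27.51 and 24.61 TPM on day 2, and 27.51 and 25.39 TPM on day 3. For both genes the iCD1 libraries lay apart from kEpiSCs from day 1 on, and the later day steps did not pass. In PNT-D1 against kEpiSC, Tet1 fell by 1.79 ± 0.14 (adjusted p = 9.40e-08) and Tet3 rose by 2.56 ± 0.16 (adjusted p = 7.39e-09). Tet2 had 1.65 and 2.25 TPM on day 1, against 5.21 and 5.74 TPM in kEpiSCs, and fell by 1.61 ± 0.25 (adjusted p = 9.70e-05). On day 3 it had 3.56 and 3.44 TPM, and its fall against kEpiSC of 0.87 ± 0.25 (adjusted p = 0.00808) lost its call without kEpiSC replicate 2 (adjusted p = 0.0565) or PNT-D3 replicate 2 (0.0516), by limma on log2(TPM + 1) (0.101) and with all 38 libraries in 1 fit (0.0501).

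Of the maintenance genes, Dnmt1 was higher in iCD1 and Uhrf1 was not called. Dnmt1 had 121.02 and 114.43 TPM in kEpiSCs, 153.11 and 169.72 TPM on day 1, 184.18 and 173.67 TPM on day 2, and 176.66 and 172.01 TPM on day 3. It rose in PNT-D1 against kEpiSC by 0.33 ± 0.09 (adjusted p = 0.00643), a call lost without kEpiSC replicate 2 (0.0644) or PNT-D1 replicate 2 (0.0993). It rose in PNT-D3 against kEpiSC by 0.34 ± 0.09 (adjusted p = 0.00482), and lost the call without PNT-D3 replicate 1 (adjusted p = 0.0534). Uhrf1 had 200.75 and 200.61 TPM on day 3, against 199.94 and 192.25 TPM in kEpiSCs. On counts its log2 fold change was -0.23 ± 0.11, opposite in sign to the TPM values, and did not pass in edgeR (adjusted p = 0.0882). In PNT-D3 against kEpiSC 6 of 8 genes passed, beside 50.6% of all genes.

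On day 3 the marker sums of both states stood apart from those of kEpiSCs and kiPSCs. Primed markers, 11 genes, summed to 484.71 to 512.28 TPM in PNT-D3, against 837.49 to 901.3 TPM in kEpiSCs. The sum did not fall steadily, with 2637.33 to 2754.28 TPM in PNT-D1 and 860.82 to 861.7 TPM in PNT-D2. Its members differed, and Fgf5 averaged 0.78 TPM in PNT-D1, against 51.05 TPM in kEpiSCs. Pou5f1 (Oct4), a pluripotency factor shared by both states, averaged 39.47 TPM in PNT-D3, against 2009.94 TPM in kEpiSCs. The naive markers summed to 92.53 to 133.81 TPM in kEpiSCs, 217.27 to 275.37 TPM in PNT-D3 and 7175.99 to 8277.07 TPM in kiPSCs. This sum includes Klf4, the gene of the transgene, at 65.19 to 102.61 TPM in kEpiSCs and 138.7 to 156.92 TPM in PNT-D3. In the same order, Esrrb was at 2.42 to 2.98 and 2.6 to 4.66 TPM, and Dppa5a at 3.6 to 4.59 and 31.8 to 44.94 TPM. Trophoblast markers summed to 324.32 to 378.28 TPM in PNT-D3, against 321.88 to 330.91 TPM in kEpiSCs, and fibroblast markers to 69.21 to 82.45 TPM in PNT-D3, against 18.73 to 23.36 TPM in kEpiSCs. The part that such cells play in the levels of the 8 genes was not tested.

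The TET enzymes of the kiPSCs were far from those of day 3. Tet2 had 42.53 and 43.44 TPM in kiPSCs, against 3.56 and 3.44 TPM in PNT-D3, and rose by 3.73 ± 0.25 on the log2 scale (adjusted p = 7.21e-09). Tet1 had 74.23 and 66.61 TPM in kiPSCs, against 13.83 and 15.03 TPM in PNT-D3, and rose by 2.76 ± 0.15 (adjusted p = 5.99e-10). Tet3 had 3.86 and 5.35 TPM in kiPSCs, against 27.51 and 25.39 TPM in PNT-D3, and fell by 2.42 ± 0.17 (adjusted p = 7.13e-09). Tet3 held 3.92% of the TET RNA in kiPSCs, against 59.6% in PNT-D3, beside the 4.44% of ESCs.

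The DNMT3 genes did not simply continue the path of the first 3 days. Dnmt3b had 40.30 and 59.43 TPM in kiPSCs, against 28.54 and 23.96 TPM in PNT-D3, and rose by 1.04 ± 0.18 (adjusted p = 0.000112). Dnmt3a had 16.97 and 18.22 TPM in kiPSCs, against 114.06 and 88.67 TPM in PNT-D3, and fell by 2.27 ± 0.14 (adjusted p = 1.77e-09). Both genes had moved the other way in PNT-D3 against kEpiSC, a comparison that shares the PNT-D3 libraries. Dnmt3l had 51 and 71 counts in kiPSCs, against 5 and 1 in PNT-D3 (adjusted p = 0.00252), and Uhrf1 rose by 0.96 ± 0.11 (adjusted p = 1.63e-06). Altogether 7 of 8 genes passed in kiPSC against PNT-D3, beside 57.9% of all genes.

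Across the whole transition, kiPSC against kEpiSC, 7 of 8 genes passed, beside 57.5% of all genes. Dnmt3b fell by 3.37 ± 0.18 and Dnmt3a by 1.70 ± 0.13 on the log2 scale, while Dnmt1 rose by 0.54 ± 0.09, Uhrf1 by 0.73 ± 0.11, Tet1 by 0.65 ± 0.13 and Tet2 by 2.86 ± 0.23. Dnmt3l had 122 counts in kiPSCs against 5 in kEpiSCs, a ratio of 50.8 after scaling to library size (95% counting interval 21.2 to 159). Tet3 did not pass (-0.36 ± 0.16, adjusted p = 0.072). These calls held under all 13 alternatives. The kiPSC and kEpiSC libraries did not overlap for any called gene, but how many of all genes separate so was not counted. Groups of 2 libraries can separate without a difference.

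In kiPSC against ESC, edgeR called none of the 8 genes, with none at an unadjusted p under 0.05 and none called by DESeq2 or limma, beside 0.144% of all genes (20 of 13923, with 765 at an unadjusted p under 0.05). The values nearest to a difference were Dnmt3a, with 16.97 and 18.22 TPM in kiPSCs, against 28.72, 31.70, 39.45, 18.22 and 51.99 TPM in ESCs (log2 fold change -0.78 ± 0.40, unadjusted p = 0.0718), and Dnmt3l, at -1.90 ± 1.26 (unadjusted p = 0.157). A miss of the threshold does not show that the cells are alike in these genes.

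With the JNK inhibitor none of the 8 genes passed on any day, while the Dnmt3l values on days 1 and 3 were higher than without it. Dnmt3l had 3.94 and 1.87 TPM with JNKi against 1.19 and 0.84 TPM without on day 1, 8.15, 1.02 and 0.28 TPM against 0.84 and 0.93 TPM on day 2, and 3.12 and 5.62 TPM against 0.90 and 0.27 TPM on day 3. The groups did not overlap on days 1 and 3 and overlapped on day 2. How many of all genes separate so was not counted, and groups of 2 libraries can separate without a difference. By edgeR, all genes considered, few differences passed on day 1 (0% of all genes called, 271 at an unadjusted p under 0.05), day 2 (0.00672%, 1 gene of 14892) or day 3 (0%, 498 at an unadjusted p under 0.05); DESeq2 called 0, 1 and 3 of all genes and none of the 8. On day 3 the log2 fold change of Dnmt3l was 2.74 ± 1.12 (unadjusted p = 0.0261), from 14 and 17 counts with JNKi against 5 and 1 without.

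Other values on JNKi were smaller. Tet2 had 4.85 and 4.61 TPM in PNT-JNKi-D3, against 3.56 and 3.44 TPM in PNT-D3 (0.46 ± 0.27, unadjusted p = 0.101). Dnmt3b had 32.62 and 34.01 TPM in PNT-JNKi-D3, against 28.54 and 23.96 TPM in PNT-D3 (0.22 ± 0.18, unadjusted p = 0.25). The difference between the JNKi effect on day 3 and on day 1 passed for none of the 8 (0% of all genes, 339 at an unadjusted p under 0.05, and 1 gene by DESeq2). Naive markers summed to 354.55 to 468.19 TPM in PNT-JNKi-D3, against 217.27 to 275.37 TPM in PNT-D3; their part in the Dnmt3l values was not tested.

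Before the change of medium, none of the 8 genes passed between JunKO and WT (0 of 8 by edgeR, DESeq2 and limma, beside 0.335% of all genes and 1054 genes at an unadjusted p under 0.05). Dnmt3b had 412.30 TPM in JunKO-iEpiSC and 625.81 TPM in JunKO-kiEpiSC, against 393.16 TPM in WT-iEpiSC and 521.11 TPM in WT-kiEpiSC. Dnmt3l had 2 counts in the JunKO primed libraries, both in JunKO-kiEpiSC, and 0 in WT, so no fold is given. The lowest p was that of Tet2, with 0.96 and 1.45 TPM in JunKO, against 2.11 and 2.05 TPM in WT (-0.82 ± 0.36 by edgeR, adjusted p = 0.605).

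On day 3 in iCD1, Dnmt3l was detected in JunKO and not in WT cells. It had 4.13 and 10.57 TPM in JunKO cells, from 11 and 32 counts, against 0.00 and 0.00 TPM in WT cells, from 0 and 0 counts. With a floor of 3 counts over the WT group, this is at least 12.9-fold higher in JunKO, and the difference passed (adjusted p = 0.0329), 1 of 8 genes beside 1.57% of all genes. The call was lost without JunKO-kiEpiSC-iCD1 replicate 2 (adjusted p = 0.121), without WT-kiEpiSC-iCD1 replicate 1 (0.265) or replicate 2 (0.125), in a fit of only these groups (0.0593) and in a fit of all 38 libraries (0.402). The sum of the 13 naive markers was also higher, at 602.28 to 1097.43 TPM in JunKO cells, against 165.2 to 268.89 TPM in WT cells. None of these markers was at 0 in either group. Dppa5a alone had 353.69 to 688.02 TPM in JunKO cells, against 35.6 to 130.84 TPM in WT cells. Klf4, also in the sum, overlapped, at 54.31 to 69.36 TPM against 45.45 to 89.36 TPM. The part of the naive markers in the Dnmt3l result was not tested.

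The remaining genes showed values without calls in that comparison. Tet1 had 13.79 and 14.79 TPM in JunKO cells, against 6.96 and 8.51 TPM in WT cells (0.47 ± 0.32 on the log2 scale, unadjusted p = 0.168). Tet2 had 6.37 and 6.40 TPM in JunKO cells, against 4.07 and 3.37 TPM in WT cells (0.78 ± 0.29, adjusted p = 0.257). Dnmt3b had 32.12 and 48.62 TPM in JunKO cells, against 18.77 and 30.53 TPM in WT cells (0.77 ± 0.45, adjusted p = 0.543). In these 3 genes the JunKO libraries were all above the WT libraries in TPM. The share of all genes separated in this way was not counted, and groups of 2 libraries often separate without a difference. The isoform-weighted length of Tet1 was 7324.6 and 12869.3 bases in JunKO cells, against 13260.1 and 14042.8 bases in WT cells. Its part in the Tet1 TPM values was not tested.

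With JNKi on day 3, the Dnmt3l values of both genotypes were above those without it. Dnmt3l had 34.47 and 56.54 TPM in JunKO with JNKi, from 103 and 149 counts, against 4.13 and 10.57 TPM in JunKO without. It had 10.43 and 20.57 TPM in WT with JNKi, from 26 and 58 counts, against 0.00 and 0.00 TPM in WT without. JNKi against iCD1 in WT passed for Dnmt3l only (adjusted p = 0.0348, 1 of 8 beside 0.471% of all genes), with at least 24.8-fold higher summed counts (84 against 0). It lost the call when any of the 4 libraries was left out (adjusted p of 0.0954 to 0.313). In JunKO the log2 fold change was 2.50 ± 0.47 (adjusted p = 0.12), so 0 of 8 passed by edgeR, beside 0.0456% of all genes (6 of 13152, with 1649 at an unadjusted p under 0.05); DESeq2 called 1 of the 8.

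Between genotypes under JNKi, 0 of 8 passed by edgeR, DESeq2 or limma without a replicate block, beside 0.935% of all genes (2144 at an unadjusted p under 0.05). With a replicate block in edgeR, Dnmt3b (adjusted p = 0.0184) and Dnmt3l (0.0258) passed, though no label ties the numbers to a culture. The block also gave calls for JNKi against iCD1, of Dnmt3b in WT (0.0294) and of Dnmt3b and Dnmt3l in JunKO (0.0103 each). Dnmt3l had 34.47 and 56.54 TPM in JunKO with JNKi, against 10.43 and 20.57 TPM in WT with JNKi (1.58 ± 0.44 on the log2 scale, adjusted p = 0.128). Dnmt3b had 53.37 and 175.78 TPM in JunKO with JNKi, against 37.45 and 62.49 TPM in WT with JNKi, and overlapped (1.10 ± 0.42, adjusted p = 0.23). Without JunKO-kiEpiSC-JNKi replicate 1, 3 of the 8 passed, namely Dnmt3b (1.67 ± 0.29, adjusted p = 0.00638), Dnmt3l (1.85 ± 0.47, 0.0469) and Tet3 (-0.76 ± 0.20, 0.0413); without it, Dnmt3b and Dnmt3l also passed for JNKi against iCD1 in JunKO (adjusted p = 0.0026 and 0.0134). The difference of the JNKi effect between genotypes passed for none (0% of all genes, 750 at an unadjusted p under 0.05, 1 gene by DESeq2). Naive markers summed to 1308.43 to 1773.92 TPM in JunKO with JNKi, against 674.41 to 811.33 TPM in WT with JNKi, and their part in the Dnmt3l values was not tested.

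Day 3 in iCD1 could also be read in the EpiSC-like cells, a set of libraries apart from the kEpiSC course. With the term for the line, the fitted primed level is that of kiEpiSC, and the iEpiSC libraries enter through that shared term. In WT iCD1 day 3 against WT primed, 4 of 8 genes passed, beside 27.5% of all genes: Dnmt3b fell by 4.66 ± 0.49 (adjusted p = 0.000106) and Tet1 by 1.50 ± 0.35 (adjusted p = 0.00881), while Tet3 rose by 2.44 ± 0.30 (adjusted p = 0.000256) and Dnmt3a by 0.44 ± 0.15 (adjusted p = 0.0483). In JunKO 5 of 8 passed, beside 23.8% of all genes: Dnmt3b fell by 4.04 ± 0.47 (adjusted p = 0.000245) and Tet1 by 1.26 ± 0.33 (adjusted p = 0.0182), while Tet2 rose by 2.23 ± 0.37 (adjusted p = 0.00175), Tet3 by 2.33 ± 0.30 (adjusted p = 0.000416) and Dnmt3l was called (adjusted p = 0.0453). Whether the Tet2 or Dnmt3l change differs between genotypes was not tested as such. Summed over both lines, Dnmt3l had 43 counts against 2, a ratio of 19.0 after scaling to library size (4.94 to 162). The call does not test this ratio. It is made against the primed level of kiEpiSC, where the fitted log2 value was 3.26 ± 1.01 on few counts. Of these genes, Dnmt3b alone held its call under all 13 alternatives in both genotypes, and Dnmt3a in WT held it under 3 of 13. Without the WT-kiEpiSC library 1 gene was called in WT, and without the JunKO-kiEpiSC library 1 gene in JunKO; Tet3 was then at an adjusted p of 0.062 in WT and 0.0567 in JunKO, and Tet1 at 0.0768 and 0.597.

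Around the 8 genes, lists of partner genes were read for the same comparisons. In ESC against EpiSC, 2 of the 13 partners of maintenance methylation rose and 4 fell (median 0.156 on the log2 scale, against 0.025 over all genes, of which 50.9% were called). Usp7, a deubiquitinase that binds DNMT1, rose by 1.05 ± 0.11, and Cdca7l, a relative of the HELLS partner CDCA7, fell by 1.64 ± 0.19. Of 16 readers and imprint protectors 6 rose and 1 fell (median 0.209). Zfp57, which guards imprinted methylation, rose by 2.32 ± 0.20, and Dppa3, known to keep UHRF1 from chromatin, had 2536 counts in ESCs against 0 in EpiSCs, at least 355-fold higher.

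The other lists were read against the same 50.9% of all genes called in ESC against EpiSC. Of 14 tested guides of de novo methylation 7 rose and 3 fell (median 0.315). Prdm14, a repressor of Dnmt3b in ESCs, had 1542 counts in ESCs against 0 in EpiSCs, at least 216-fold higher, and Morc1, known from transposon silencing in the germ line, rose by 8.50 ± 0.35. Of 31 DNA replication genes 13 rose and 2 fell (median 0.217), a share called near that of all genes. Of 19 tested methyl donor genes 8 rose and 6 fell (median 0.054), among them Tdh, the threonine dehydrogenase of mouse ESCs, which rose by 5.33 ± 0.63. The lists for base excision (1 of 16 up, 1 down) and TET cofactors (3 of 17 up, 5 down) had medians of 0.015 and -0.07.

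In the transition, the folate and methyl donor genes were mostly lower on day 3 than in kEpiSCs. In PNT-D3 against kEpiSC 12 of 19 methyl donor genes fell and 3 rose (median -0.651, against 0 over all genes, of which 50.6% were called). Mthfd1, an enzyme of folate metabolism, fell by 2.59 ± 0.11, Mthfd2 by 2.98 ± 0.30 and Cbs by 2.87 ± 0.37. DNA replication genes fell in 13 of 31 and rose in 3 (median -0.319), while base excision genes fell in 7 of 16 and rose in 3 (median -0.525); the share of replication genes called was near that of all genes. In kiPSC against PNT-D3 these directions were turned, with 10 of 19 methyl donor genes up (median 0.827) and 19 of 31 replication genes up (median 0.449), beside 57.9% of all genes called in either direction. These comparisons share the PNT-D3 libraries. By limma on log2(TPM + 1), the median over all genes in PNT-D3 against kEpiSC was 0.18 in place of 0, and 4585 of 7081 called genes were higher, against 3746 of 7531 by edgeR.

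With c-Jun deleted, few partner genes passed on day 3 in iCD1, where 1.57% of all genes did. Cbs, of homocysteine metabolism, rose by 2.14 ± 0.32 in JunKO against WT (adjusted p = 0.0157) and Tdh by 2.45 ± 0.53 (adjusted p = 0.0494), both 2 of the 17 methyl donor genes tested. Of 31 DNA replication genes 3 rose and none fell. Apobec3, a cytidine deaminase, rose by 1.25 ± 0.23 (adjusted p = 0.0288). In kEpiSC against EpiSC, 1 of the genes in these lists passed, Mbd1, at -1.55 (adjusted p = 0.0495).

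The genes most like each of the 8 were taken from 13982 genes with a mean of at least 1 TPM, by Pearson r over the 18 group means. Dnmt1 was most like Prdm2, Myo19 and Cmtm7 (r = 0.972, 0.968 and 0.963) and Uhrf1 like Mras, Senp3 and Hsh2d (0.94, 0.938 and 0.936). Dnmt3a was most like Phf6, Suv39h1 and Cd24a (0.971, 0.971 and 0.967) and Dnmt3b like Phc1 and Mmp25 (0.977 and 0.974). Tet2 was most like Tfcp2l1, a naive transcription factor, Tekt1 and Mymx (0.967, 0.966 and 0.963), and Tet1 like Atp1b1, Bicral and Tert (0.953, 0.946 and 0.943). Tet3 was most like Hoxb1, Arg1 and Disp1 (0.979, 0.974 and 0.973). Dnmt3l was most like Plbd1, Serpina3m and Hsd17b14 (0.941, 0.94 and 0.92), but over the 38 single libraries r with Plbd1 was 0.706. Between the 8 themselves, the same measure was -0.841 for Dnmt1 and Dnmt3b, 0.842 for Uhrf1 and Tet2, -0.866 for Dnmt3a and Tet1, and 0.729 for Dnmt3l and Tet2. The points share libraries and cell lines, so these values are descriptions only.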

How the data were processed

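Expression tables of 38 mouse libraries were analysed. TRIzol extraction and a TruSeq kit are named per the labels, while the methods of the study name another kit. The authors used bcl2fastq, Bowtie2 and RSEM on mm10 (versions not given in the sources used here). The deposited expected counts are RSEM's unnormalized estimates per gene. The deposited TPM values are scaled by effective length to a fixed sum, and the deposited FPKM values by effective length and fragment number. The tables also hold isoform-weighted lengths from the same estimation. Symbols came from GENCODE M21 and matched 28756 of 29267 identifiers.

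Rounded expected counts were tested with edgeR 4.0.16 (R 4.3.3; quasi-likelihood F test, TMM, filterByExpr at a minimum count of 10, Benjamini-Hochberg over all genes tested, threshold 0.05) in 3 fits. They held the 13 ESC, EpiSC, kEpiSC and kiPSC libraries, the 17 kEpiSC, kiPSC and PNT libraries, and the 12 JunKO and WT libraries. In the last fit, iEpiSC and kiEpiSC are the primed cells of a genotype and the line is a term, set for iEpiSC. Fitted primed levels are thus those of kiEpiSC. SE is the absolute log2 fold change divided by the square root of F. Alternatives were limma 3.58.1 on log2(TPM + 1) and log2(TPM + 0.1), DESeq2 1.42.0, other size factors and filters, narrower and wider fits, a replicate block and leaving out each library. Weighted lengths were compared by an exact permutation test. The test script was tested on simulated counts. Named genes are all 8 in every comparison, up to 4 called genes with the largest change per partner list and the 3 genes most like each of the 8, of which 1 is not reported here. The 8 genes and the lists were chosen with earlier results of these data known. Totals of 2164711 to 15944950 expected counts per library leave a gene with few counts, such as Dnmt3l, coarsely measured.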

Additional observations from a re-analysis of the deposited data

Results flagged for a closer look

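The first value that stood apart from its group was Dnmt3l in ESC replicate 3. It reached 160.3 TPM there, while the other 4 ESC libraries lay between 3.32 and 14.02 TPM. The gap to the nearest library was 0.932 of the whole range of the group. Without that library the call of Dnmt3l in ESC against EpiSC was kept, while the ratio of summed counts was 23.8 in place of 105.

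Uhrf1 in EpiSC replicate 1 had 176.52 TPM, below the 221.90 to 229.70 TPM of the other 3 EpiSC libraries (gap 0.853 of the range). Dnmt3l in EpiSC replicate 3 was listed at 0.0 TPM beside 0.43 to 0.46 TPM in the others (gap 0.935 of the range), which is a count of 0 beside 1 count in each of the others. Only the 16 cases of a gene in ESCs or EpiSCs could be examined in this way, the other groups being smaller, and chance flags about 1 in 20 groups.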

How the results depend on the processing

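Of 168 fold changes of the 8 genes, 47 were called. Over 671 alternative values of these, 64 lost the call and no sign turned, and 29 of the 47 kept their call under every alternative. No result reversed.

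The number of the 8 genes called moved as follows. In kEpiSC against EpiSC (2 called) it was 0 by limma with either pseudocount, 1 in a fit of only the groups compared and 0 to 3 with a library left out. In PNT-D2 against PNT-D1 (1) it was 2 by limma with either pseudocount, 2 in a fit of only the groups compared and 0 with all 38 libraries in 1 fit. In PNT-D3 against PNT-D2 (1) it was 2 by DESeq2 and 0 with all 38 libraries. In PNT-JNKi-D3 against PNT-D3 (0) it was 1 with no filter beyond 1 count. In JunKO against WT on day 3 in iCD1 (1) it was 2 without that filter, 0 in a fit of only the groups compared, 0 with all 38 libraries and 0 to 1 with a library left out. In JunKO against WT with JNKi (0) it was 3 without the filter and 0 to 3 with a library left out. In JNKi against iCD1 in WT (1) it was 2 without the filter, 0 with all 38 libraries and 0 with any library left out. In JNKi against iCD1 in JunKO (0) it was 1 by DESeq2, 3 without the filter and 0 to 2 with a library left out. With a library left out it was 1 to 3 in WT on day 3 against primed (4) and 1 to 5 in JunKO on day 3 against primed (5). The JNKi effect of JunKO minus that of WT (0) had 1 without the filter. The Dnmt3a length difference of -1626.4 bases was -1055.1 bases with ESC replicate 5 alone and -1806.4 to -1429.0 bases with a library left out. The cause of these changes was not tested.

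Counts over all genes moved by more than 1.5 times in most comparisons with few calls. With a library left out, 37 to 333 genes were called in kEpiSC against EpiSC (176 with all), 5 to 57 in kiPSC against ESC (20), 1242 to 1456 in PNT-D2 against PNT-D1 (2454), 535 to 994 in PNT-D3 against PNT-D2 (1821), 0 to 1 in JunKO against WT primed (44), 5 to 174 in JunKO against WT in iCD1 (206), 0 to 911 in JunKO against WT with JNKi (123), 0 to 2 in JNKi against iCD1 in WT (62), 0 to 546 in JNKi against iCD1 in JunKO (6), 402 to 2644 in WT on day 3 against primed (3614), 241 to 2826 in JunKO on day 3 against primed (3125) and 0 to 170 in the JNKi effect of JunKO minus that of WT (0). Over the other settings the counts of these comparisons ran from 172 to 1094, 4 to 88, 1143 to 3452, 579 to 2339, 33 to 739, 105 to 822, 0 to 1138, 47 to 792, 0 to 717, 2542 to 4317, 2197 to 3910 and 0 to 221, in the same order. With JNKi on days 1, 2 and 3 of the PNT course they reached 54, 83 and 65.

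Nothing in the labels says that a replicate number marks a shared culture or day, so the numbers were not taken as pairing. Of the groups compared, only ESCs and EpiSCs shared 3 or more numbers (correlations of -0.055 to 0.056). For the other groups, too few numbers were shared for the correlations to decide on pairing. Over 76 same-numbered pairs the correlation of deviations ran from -0.066 to 0.299, with 17 over 0.1. It was uneven: 0.145 to 0.249 in the 5 pairs of PNT-JNKi with PNT of the same day, 0.299 for JunKO with WT in iCD1, 0.172 for JNKi with iCD1 in WT, and 0.066 and 0.061 for JunKO with WT under JNKi and JNKi with iCD1 in JunKO. Where both groups hold the same 2 numbers, both pairs have the same value by construction, so the pairs are not independent. A replicate block lost no call, turned no sign and gained 6. With the block, 2 genes were called in JunKO against WT with JNKi (Dnmt3b, adjusted p = 0.0184, and Dnmt3l, 0.0258), 2 in JNKi against iCD1 in WT (Dnmt3l, called without it too, and Dnmt3b, 0.0294) and 2 in JNKi against iCD1 in JunKO (Dnmt3b and Dnmt3l, 0.0103 each). Dnmt3a also passed in JunKO on day 3 against primed (0.46, adjusted p = 0.0272).

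Most groups hold 2 libraries, and primed JunKO and WT cells 1 per line. Dnmt3l had few or no counts in primed cells and in WT on day 3 in iCD1, so its size against those groups is a bound or a wide interval, and the weighted Dnmt3a length rests on how RSEM shared reads among isoforms.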
